A study of Mus musculus with 12 samples.

Results

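DNA methylation was examined at 9 genes of the aryl hydrocarbon receptor (AhR) pathway and of the metabolic activation of dibenzo[def,p]chrysene (DBP), out of 22380 protein-coding genes annotated on the mm9 assembly. The genes were Ahr, Arnt, Ahrr, Tiparp, Cyp1a1, Cyp1a2, Cyp1b1, Ephx1 and Nqo1, and every CpG from 2000 bp before the annotated start to the end of each gene was taken. The windows were set by the annotation and not by methylation values. The windows held 3160 CpGs in the reference, of which 958 had at least 1 read in a sample and 364 had 10 or more reads in at least 1 sample, out of 4446809 CpGs read at least once in the series. The 12 samples came from oral soft tissue of female B6C3F1/J mice that were 8 weeks old at the start. There were 4 groups of 3 samples: vehicle (DMSO), DBP, DBP with a chemopreventive agent that the labels leave unnamed (DBP+agent), and DBP with BR extract (DBP+BR extract). DBP was painted in the oral cavity at 24 nmol per dose, 3 doses a week for 5 weeks, and the tissue was taken 48 h after the last dose. Buccal mucosa, floor of the mouth and soft tissue of the hard palate were combined for DNA extraction, so epithelium, muscle, connective tissue and glands were measured together. In such a mixture a shift in methylation within cells and a shift in the proportions of cell types cannot be told apart. The labels do not say whether a sample is a single animal, so no p-value can be read as the spread between animals. The p-values from region and permutation tests rest on the spread between these samples. Those from the logistic regression per CpG do not model it.

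AhR is a ligand-activated transcription factor that binds polycyclic aromatic hydrocarbons, moves to the nucleus and pairs with ARNT. The pair binds the core GCGTG, whose CpG can be methylated, and induces CYP1A1, CYP1A2 and CYP1B1 as well as the repressors AHRR and TIPARP. CYP1 enzymes and the epoxide hydrolase EPHX1 together turn DBP into the diol epoxides that bind DNA, and NQO1 reduces quinones. In vertebrates the CpG-dense promoters of widely used genes are usually unmethylated, while scattered CpGs in gene bodies are usually methylated.

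The letters GCGTG (or CACGC, its reverse complement) were searched from 2000 bp before to 1000 bp after each start, a window of 3001 bp, and each match is a description of the letters and not an established binding site. The windows of the 9 genes held 53 cores, of which 21 had at least 1 read and 10 had 10 or more reads in at least 3 samples. Cyp1b1 had 13 cores and Cyp1a1 had 12, counts that only 0.487% and 0.800% of all genes reached, while Tiparp had 8, Ahrr 7, Ahr 6, Arnt 1, and Cyp1a2, Ephx1 and Nqo1 had 2 each. Of all genes, 82.9% had at least 1 core, with a median of 3. The sequences below are 8 of those 10 cores, shown to set each measured CpG in its sequence, and the other 2 overlap each other at 83 and 85 bp after the Ahr start. Each is 29 bases of the mm9 reference, 5′ to 3′ on the strand of the gene, with the core in capitals, and the number after the gene is the distance of the CpG from the gene start in bp.
Cyp1a1 -1278, chr9:57544129-57544157, plus strand: ccgggtggtgctGCGTGtcctgccactaa
Cyp1a1 -1249, chr9:57544157-57544185, plus strand: aaaatgtggacaCACGCtgttcaggcctt
Cyp1a1 -1206, chr9:57544200-57544228, plus strand: agccgagcatcgCACGCaaacccggccct
Cyp1a1 -1060, chr9:57544347-57544375, plus strand: ctcccccagctaGCGTGacagcactggga
Ahrr -105, chr13:74429870-74429898, minus strand: tattgaaagggcGCGTGgcaggcagggac
Tiparp 183, chr3:65332501-65332529, plus strand: gaggcggccctcCACGCcgcgcctgggct
Ahr 47, chr12:36219649-36219677, minus strand: cggcgggcggcaGCGTGtgtgtgcgctcc
Ahr 252, chr12:36219444-36219472, minus strand: cgggcgcggctaGCGTGcgggtttctcct

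The cores that were read were almost free of methylation in oral tissue of all 4 groups, with most of the reads from DBP+agent and DBP+BR extract samples. Over the 21 of the 53 cores that had a read, 24 of 3937 reads called the cytosine methylated, a level of 0.610%. A sequencing read that spans 2 cores is counted at both. Cyp1a1 had 17 of the 24 and Ahrr the other 7, of which 5 were at the Ahrr core at 572 bp, read only in DBP+BR extract replicate 1. At the Tiparp core, the only member core with 10 or more reads in all 12 samples, the DMSO samples had 53, 38 and 12 reads, the DBP samples 61, 47 and 35, the DBP+agent samples 175, 125 and 145, and the DBP+BR extract samples 51, 90 and 139. All 971 of those reads were unmethylated, which allows a level of up to 0.309% (3 reads of the total, counting error only). The Cyp1a1 core at -1060 had 1 methylated read of 617, found in DBP replicate 3 among 19 reads. The core at -1249 had 1 of 274, that at -1206 had 0 of 212, and the Ahrr core at -105 had 2 of 308. At the Ahr cores 0 of 368 reads (position 47), 0 of 264 and 0 of 265 (positions 83 and 85, which overlap) and 0 of 145 (position 252) were methylated. The Cyp1a1 core at -1278 was higher, with 15 methylated of 174 reads, or 8.62%. Its reads came mostly from 3 samples, with 5 of 15 methylated in DBP+agent replicate 1, 0 of 26 in DBP+agent replicate 2 and 9 of 109 in DBP+BR extract replicate 1. Across all protein-coding promoters, the pooled level of CpGs in this core had a median of 2.96% over the 12 samples, against 2.79% for CpGs in neither the core nor an MspI site.

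Several genes could not be read well at some or all of their cores. The Cyp1b1 cores had 11 reads in all, none methylated, and the Arnt core had 9, none methylated. The cores of Cyp1a2, Ephx1 and Nqo1 had 0 reads. Levels at these cores were therefore not measured at a useful depth.

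Depth went with the number of CpGs of the 9 genes that reached 10 reads. CpGs with at least 1 read followed it less closely, with 424 in DBP replicate 1 and 304 in the deeper DBP+BR extract replicate 2. In enhanced reduced representation bisulfite sequencing (ERRBS), DNA is cut with MspI at CCGG, and fragments of a chosen length are sequenced after bisulfite treatment, which leaves methylated cytosines as C and turns the rest to T. The files held 3287367 to 7774032 CpG calls in the DMSO samples, 7515975 to 7974299 in DBP, 16908728 to 39615620 in DBP+agent and 17712547 to 78889043 in DBP+BR extract. In the 9 genes, 70, 50 and 24 CpGs reached 10 reads in the DMSO samples, and 71, 73 and 94 did so in the DBP samples. The DBP+agent samples had 250, 215 and 140 such CpGs and the DBP+BR extract samples 291, 139 and 215, so every sample of these groups lay above every sample of DMSO and DBP. Depth and group therefore cannot be told apart where DBP+agent or DBP+BR extract is set against DBP. Tiparp had 113 of the 364 CpGs, Ahr 69, Ahrr 54, Cyp1b1 50, Cyp1a1 26, Ephx1 26, Cyp1a2 11, Nqo1 11 and Arnt 4. Only 11 had 10 or more reads in all 12 samples, 9 in Tiparp and 2 in Cyp1a1.

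**Figure D1:**
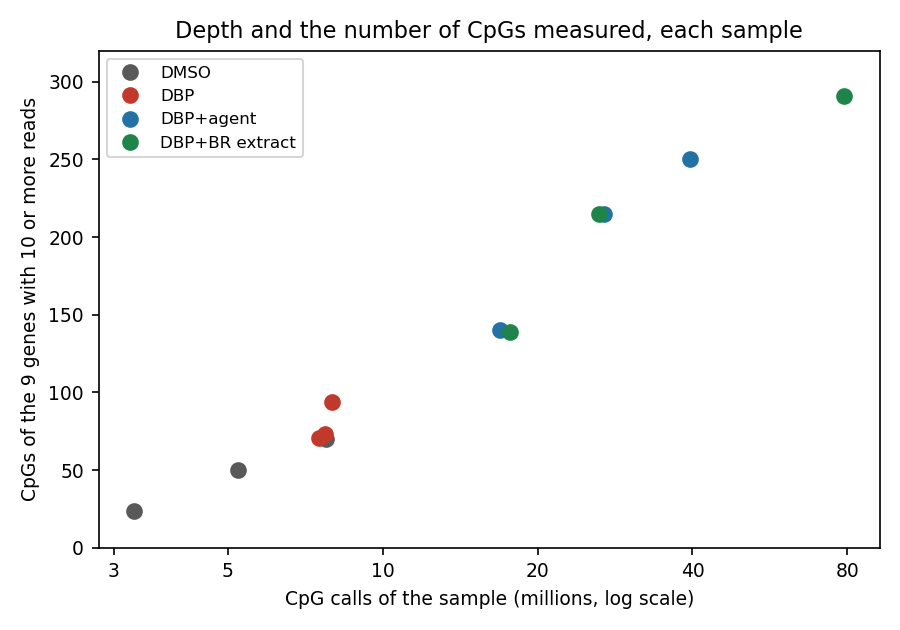
CpGs of the 9 genes with 10 or more reads (vertical axis) against the CpG calls of each sample (horizontal axis, log scale), with 1 point per sample coloured by group. The 6 DMSO and DBP samples lie between 24 and 94 CpGs and the 6 samples that also received the agent or BR extract between 139 and 291.

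A CpG's position relative to the MspI site went with its level. Of the 364 CpGs, 84 lay within CCGG itself and 280 did not. Where reads of several CpGs are summed, 1 sequencing read can count at more than 1 CpG. In the Ahr promoter, CpGs in CCGG were methylated in 338 of 1521 reads (22.2%) and the others in 16 of 13542 (0.118%). In the Tiparp promoter the values were 895 of 3855 (23.2%) and 49 of 27850 (0.176%), and in the Cyp1b1 body 843 of 2942 (28.7%) and 183 of 12034 (1.52%). Upstream of Cyp1a1 they were 389 of 895 (43.5%) and 32 of 3592 (0.891%). The 9 genes did not stand apart in this. In each of the 12 samples, promoters whose other CpGs were methylated below 5% had a median of 24.1% to 33.0% at their CCGG CpGs against 0% to 0.480% at the others, and the CCGG CpGs were the higher in 99.6% to 99.98% of these promoters. In promoters whose other CpGs were above 80%, the medians were 89.5% to 92.5% in CCGG and 88.7% to 91.6% outside it. At the start of Tiparp, the CCGG CpG at 136 was methylated in 15 of 65, 16 of 44 and 4 of 13 reads in the DMSO samples, while the next CpG at 143, only 7 bp further, was methylated in 0 of 964 reads over the 12 samples. The cause of this difference was not tested. A pooled level therefore depends on how many CCGG CpGs it contains, and for stretches of the 9 genes both kinds are given apart where both were read. The levels of pathway and marker promoters include CCGG CpGs.

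**Figure D2:**
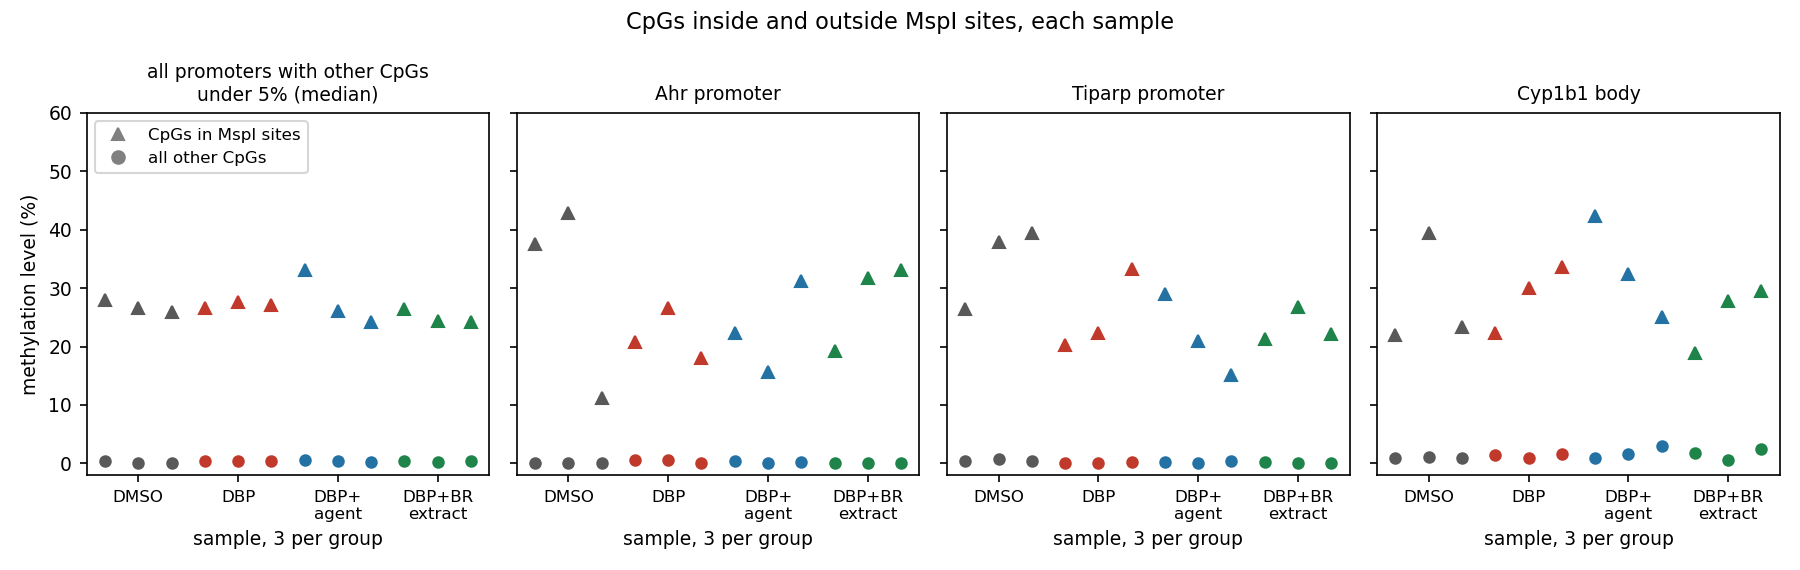
Methylation level (percent) of CpGs in MspI sites (triangles) and of all other CpGs (circles), 1 pair per sample and 3 samples per group, for all promoters whose other CpGs were below 5% (median of promoters), the Ahr promoter, the Tiparp promoter and the Cyp1b1 body. The circles stay below 3% in every sample shown, and the triangles lie between 11.1% and 42.9%.

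**Figure D3:**
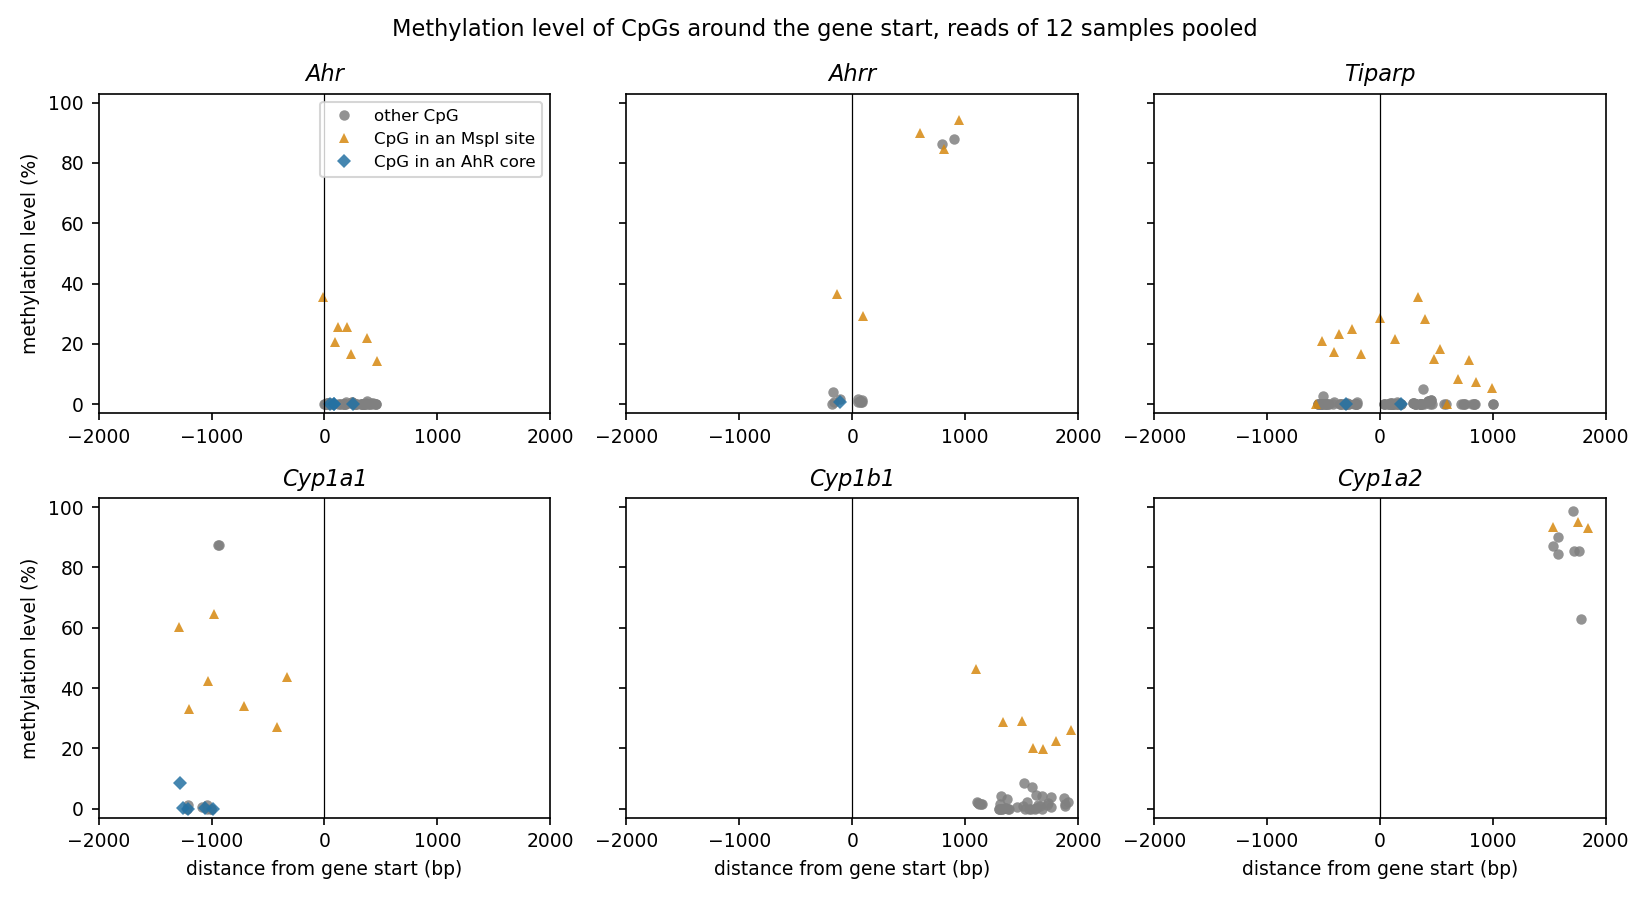
Methylation level (percent, reads of the 12 samples pooled) of each CpG with 10 or more reads in a sample, against its distance from the gene start in bp, for 6 genes. Grey circles are CpGs outside both motifs, orange triangles lie in MspI sites and blue diamonds in the AhR core. Near the starts of Ahr, Ahrr and Tiparp, upstream of Cyp1a1 and in the Cyp1b1 coding exon, circles and diamonds lie near 0% apart from Cyp1a1 -1278, -947 and -932, while the Cyp1a2 CpGs and the Ahrr CpGs from 597 to 949 bp lie above 60%.

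Ahr (chr12:36182646-36219710, minus strand) encodes the receptor. Its start carried a stretch of 54 CpGs outside CCGG, from -6 to 458 bp over the 5′ UTR and the beginning of the coding exon, that was methylated in 16 of 13514 reads (0.118%, Wilson 95% interval 0.0729 to 0.192). No CpG of this stretch exceeded 0.917%. Further into the gene the coding exons were methylated, with 89 of 110 reads (80.9%) at 30450 and 30471 bp and 30 of 30 reads at 23921 and 23932 bp. Over the 19 promoter CpGs read in all 12 samples, the pooled level was 4.07%, 4.44% and 2.13% in DMSO, 1.94%, 1.91% and 2.82% in DBP, 1.48%, 3.21% and 4.37% in DBP+agent, and 2.24%, 2.78% and 4.17% in DBP+BR extract. The ranges of the 4 groups overlapped. Of these CpGs, 2 lay in CCGG, and without them the group means were 0%, 0.181%, 0.210% and 0%.

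Arnt (chr3:95238310-95301162, plus strand), which encodes the partner that AhR needs to bind DNA, was the gene with the fewest CpGs at depth. Its 4 CpGs with 10 or more reads in a sample owed that depth to DBP+BR extract replicate 1. The CpG at -144 was methylated in 0 of 34 reads and the CCGG CpG at -197 in 8 of 31. A CpG in an intron at 16789 was methylated in 13 of 13 reads and a CpG in a coding exon at 60154 in 0 of 12. No comparison between groups could be made for Arnt.

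Ahrr (chr13:74348566-74429779, minus strand) encodes a repressor that competes with AhR for ARNT. The 13 CpGs outside CCGG from -179 to 90 bp were methylated in 27 of 2373 reads (1.14%, interval 0.783 to 1.65). Within the same promoter window, but in an intron, the level was far higher. The 2 CpGs outside CCGG at 799 and 905 bp were methylated in 138 of 158 reads (87.3%, interval 81.3 to 91.7), the CCGG CpGs at 810 and 949 bp in 245 of 278 (88.1%) and that at 597 bp in 117 of 130 (90.0%). The window of 1000 bp either side of the start thus joined an unmethylated and a methylated stretch. Its pooled level over the 3 CpGs read in all samples was 57.1%, 53.6% and 45.5% in DMSO, 52.9%, 63.2% and 61.0% in DBP, 54.3%, 60.3% and 62.7% in DBP+agent, and 43.5%, 80.6% and 55.5% in DBP+BR extract. The lowest and the highest value both lay in DBP+BR extract. These pools had as few as 14 reads in a sample, below the minimum of 20, and were not tested.

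A second unmethylated stretch lay deep inside Ahrr. From 32128 to 32342 bp, in an intron, 18 CpGs outside CCGG were methylated in 6 of 1845 reads (0.325%, interval 0.149 to 0.708), and 4 of them lay in the letters GCGTG or CACGC, each at 0%. A smaller stretch at 46519 to 46552 bp, with 2 CpGs in these letters, had 0 methylated of 68 reads. The intronic CCGG CpG at 26699 bp, before the first of these stretches, was methylated in 52 of 62 reads, and the 2 CCGG CpGs of the 3′ UTR at 79105 and 79224 bp in 390 of 581 (67.1%). Over 4 body CpGs read in all samples, the group means were 59.5% ± 10.9 in DMSO, 61.8% ± 10.3 in DBP, 59.5% ± 8.78 in DBP+agent and 54.4% ± 9.31 in DBP+BR extract (SD, n = 3), on as few as 7 reads in a sample and so untested. 

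Tiparp (chr3:65332332-65359067, plus strand) encodes an ADP-ribosyltransferase that is induced by AhR and represses it. Its promoter was the most CpG-dense of the 9, with 204 CpGs and an observed to expected CpG ratio of 0.934, against 19 CpGs and 0.166 in the Ephx1 promoter. From -553 to 1004 bp, 95 CpGs outside CCGG were methylated in 46 of 27670 reads (0.166%, interval 0.125 to 0.222). Over the 40 promoter CpGs read in all samples, the pooled level was 2.80%, 4.34% and 4.62% in DMSO, 2.05%, 2.61% and 3.17% in DBP, 3.26%, 2.23% and 2.04% in DBP+agent, and 2.94%, 3.41% and 2.39% in DBP+BR extract. The highest 2 values were DMSO samples, and DMSO replicate 1 lay within the DBP range. Only 3 of the 40 CpGs lay in CCGG, and without them the group means were 0.346% in DMSO, 0% in DBP, 0.202% in DBP+agent and 0.0649% in DBP+BR extract.

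Cyp1a1 (chr9:57545420-57551629, plus strand) encodes the monooxygenase that is the classical AhR target, and its upstream region holds a known cluster of AhR cores. The 14 CpGs outside CCGG from -1278 to -932 bp, 5 of them in cores, were methylated in 59 of 3622 reads (1.63%, interval 1.26 to 2.10). The CpGs at -947 and -932 were the exceptions, each methylated in 14 of 16 reads, all from DBP+BR extract replicate 3 and so in no replicate. Over 9 upstream CpGs read in all samples, the pooled level was 5.37%, 4.65% and 0% in DMSO, 5.19%, 9.92% and 3.57% in DBP, 8.29%, 9.20% and 7.87% in DBP+agent, and 8.28%, 4.91% and 10.3% in DBP+BR extract. The order of the group means was DMSO, DBP, DBP+BR extract and DBP+agent, and each neighbouring pair in that order overlapped. Without the 2 CCGG CpGs the means were 0%, 0.375%, 0.878% and 0.503% in the same order of groups. The 2 promoter CpGs read in all samples, at -712 and -420, both lay in CCGG. Their pooled level was 25%, 20.9% and 40% in DMSO, 25%, 26.5% and 16.7% in DBP, 43.3%, 22.4% and 26.1% in DBP+agent, and 41.2%, 37.5% and 18.1% in DBP+BR extract. Between -932 bp and the start, no CpG outside CCGG reached 10 reads in a sample. In a coding exon, the CCGG CpG at 4818 was methylated in 342 of 442 reads (77.4%) and the CpG outside CCGG at 4978 in 59 of 79 (74.7%). The CpG at 4818 was methylated in 9 of 10, 12 of 13 and 9 of 11 reads in DMSO and in 7 of 10, 15 of 18 and 14 of 18 in DBP. It was methylated in 59 of 75, 64 of 72 and 32 of 49 reads in DBP+agent and in 28 of 42, 36 of 50 and 57 of 74 in DBP+BR extract. Its group means were 88.0% ± 5.51, 77.0% ± 6.70, 77.6% ± 11.8 and 71.9% ± 5.18 (SD, n = 3), with DMSO and DBP overlapping. It was not among the CpGs tested in DBP versus DMSO, since the minimum of 10 reads applied to each strand before strands were merged. The CpG differed by 0.638 points in DBP+agent versus DBP (logistic regression, q = 1) and by -4.95 points in DBP+BR extract versus DBP (q = 0.594).

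Cyp1a2 (chr9:57524744-57531462, minus strand), the neighbour of Cyp1a1 and a monooxygenase used mainly in liver, was highly methylated in the part that was read. The 7 CpGs outside CCGG in a coding exon from 1535 to 1780 bp were methylated in 1256 of 1489 reads (84.4%, interval 82.4 to 86.1), and the 3 CCGG CpGs among them in 665 of 707 (94.1%). Over 4 body CpGs read in all samples, the pooled level was 89.8%, 87.1% and 69.2% in DMSO, 89.7%, 82.1% and 97.7% in DBP, 87.1%, 90.8% and 73.9% in DBP+agent, and 100%, 94.0% and 94.8% in DBP+BR extract. The low DMSO value, from replicate 3, rested on 13 reads and the value of 100% on 16 reads. The low value of DBP+agent replicate 3 went with the CpG at 1535, which was methylated in 18 of 36 reads there, in 65 of 75 and 32 of 32 in the other DBP+agent samples and in 12 of 12, 6 of 6 and 10 of 10 in DBP. At fewer than 20 reads in a sample, the Cyp1a2 body was tested only in DBP+agent versus DBP. The Cyp1a2 promoter had 3 reads and was not measured.

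Cyp1b1 (chr17:80106234-80114401, minus strand) encodes the extrahepatic monooxygenase known for forming DBP diol epoxides. Its promoter had only 2 MspI sites, and none of the 88 reads summed over its 41 CpGs read was methylated. Counted as independent they allow a level of up to 3.41%. That limit is too low where 1 sequencing read covered several of the CpGs. The measured part was a dense stretch of the coding exon and the following intron from 1103 to 1909 bp, where 40 CpGs outside CCGG were methylated in 167 of 11809 reads (1.41%, interval 1.22 to 1.64). In this stretch the unmethylated state thus reached well into the coding sequence, whereas a CCGG CpG in the 3′ UTR at 7343 was methylated in 18 of 19 reads. Over 27 body CpGs read in all samples, the pooled level was 4.64%, 8.26% and 5.45% in DMSO, 5.37%, 7.46% and 9.29% in DBP, 10.8%, 9.84% and 7.82% in DBP+agent, and 6.32%, 6.79% and 9.04% in DBP+BR extract. The ranges overlapped in each comparison. Over all body CpGs outside CCGG the levels were 0.973%, 1.16% and 0.862% in DMSO, 1.42%, 0.903% and 1.59% in DBP, 0.817%, 1.58% and 2.95% in DBP+agent, and 1.68%, 0.633% and 2.36% in DBP+BR extract.

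Ephx1 (chr1:182906286-182951035, minus strand) encodes the microsomal epoxide hydrolase that acts between the oxidation steps of CYP1 enzymes on DBP. Its CpG-poor promoter had 13 reads, 11 of them methylated. The CpGs read from 15323 to 43419 bp were mostly methylated, with stretch levels outside CCGG from 58.1% (287 of 494 reads at 41123 to 41320 bp) to 81.4% (70 of 86 at 15323 to 15502 bp). The 2 CpGs outside CCGG at 3879 and 3918 bp were the exception, with 2 of 71 reads methylated (2.82%, interval 0.776 to 9.70). They lay just after another annotated coding transcript start, at 3335 bp. Over 10 body CpGs the pooled level was 68.4%, 81.5% and 65.4% in DMSO, 80.5%, 73.6% and 75.6% in DBP, 71.7%, 77.3% and 64.1% in DBP+agent, and 82.1%, 74.1% and 66.4% in DBP+BR extract. DMSO replicate 2 was above all 3 DBP samples and the other DMSO samples were below them.

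Nqo1 (chr8:109912125-109927106, minus strand), a quinone reductase induced through AhR and the stress regulator NRF2, was measured only in its introns. The CCGG CpG at 5996 was methylated in 239 of 407 reads (58.7%), the CpG outside CCGG at 5393 in 22 of 104 (21.2%) and the 3 CpGs outside CCGG from 13295 to 13406 bp in 30 of 202 (14.9%). These levels were intermediate, while the 2 CpGs at 1884 and 1896 bp were methylated in 21 of 22 reads, all from DBP+BR extract replicate 1. Over the 3 body CpGs read in all samples, the pooled level was 45.8%, 15.4% and 57.1% in DMSO, 66.7%, 31.2% and 36.8% in DBP, 49.3%, 40% and 60.3% in DBP+agent, and 41.5%, 63.2% and 46.7% in DBP+BR extract. The SD within DMSO (21.6) exceeded the differences between the group means, and these pools had as few as 13 reads, so they were not tested.

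**Figure D4:**
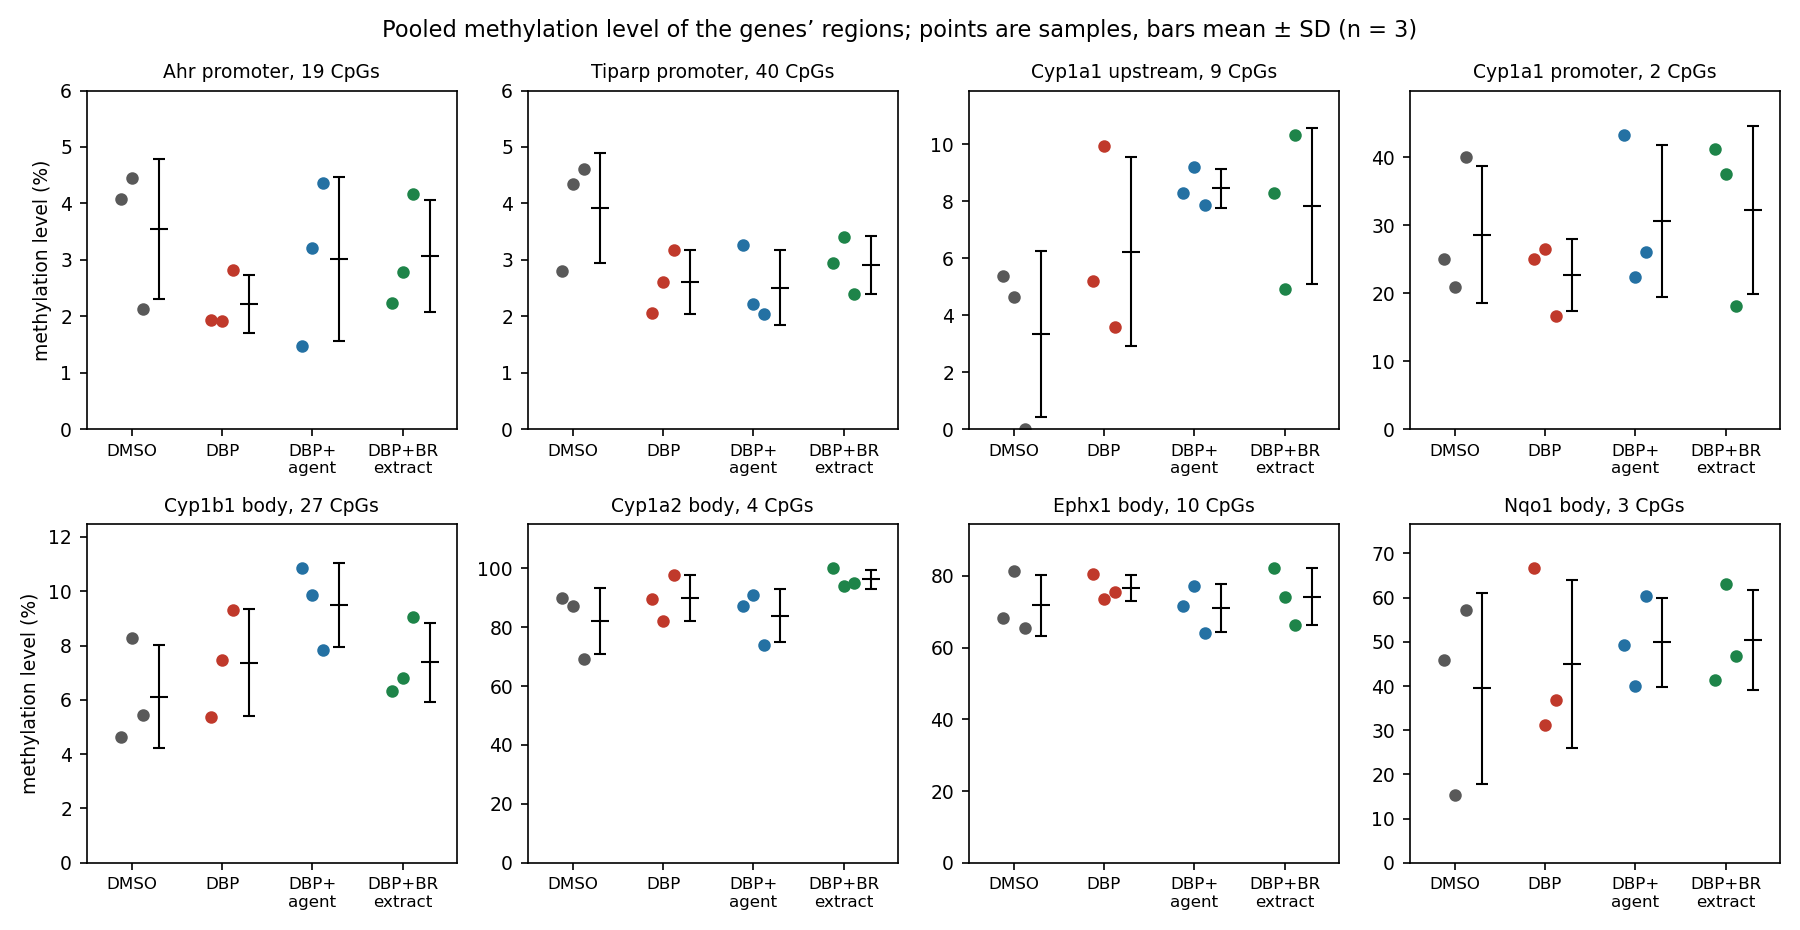
Pooled methylation level (percent) of 8 regions of the 9 genes over CpGs read in all 12 samples. Points are samples, bars are the group mean ± SD (n = 3), and each axis starts at 0. The 2 groups of each comparison overlap in every panel, and the widest spread is in the Nqo1 body, from 15.4% to 66.7%.

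The comparison of DBP with DMSO asked whether the carcinogen changed methylation at the genes that sense and activate it. No member CpG or region was called, but the CpGs tested lay only in Tiparp (9), Cyp1b1 (4) and Cyp1a1 (1). The regions tested lay in Ahr, Tiparp, Cyp1a1, Cyp1b1 and Ephx1. Arnt, Ahrr, Cyp1a2 and Nqo1 were thus not tested in this comparison. CpGs were tested by logistic regression where, in each of the 6 samples, at least 1 strand had 10 or more reads. They were called at a q-value under 0.01 and a difference over 10 percentage points. Of 53618 CpGs tested, 59 were called (0.11%), 10.8% had an unadjusted p under 0.05 and in 5.6% the groups did not overlap. Of the 14 member CpGs tested, 0 were called, 1 had an unadjusted p under 0.05 and 0 had groups that did not overlap. Fisher's exact test and edgeR's negative binomial model on the same CpGs also called 0 of the 14. Over all CpGs tested they called only 15 and 0, so they could hardly have called any of the 14. At 9 of the 14 every read of both groups was unmethylated. The smallest p was that of Cyp1b1 1110 in the coding exon, with 0 of 11, 1 of 16 and 1 of 17 methylated reads in DBP against 0 of 33, 0 of 37 and 0 of 10 in DMSO (4.04% ± 3.51 against 0%, q = 0.439, exact permutation p = 0.4). The CCGG CpG Tiparp 136 followed, at 21.7% ± 2.31 in DBP and 30.1% ± 6.67 in DMSO (SD, n = 3, q = 0.579, exact permutation p = 0.2). The CCGG CpG Cyp1a1 -420 had 20% ± 8.52 and 28.7% ± 6.64 (q = 0.632, exact permutation p = 0.2). In each of the 3 the ranges of the groups overlapped. With 3 samples against 3 the smallest two-sided exact permutation p is 0.1.

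Regions were tested by edgeR's quasi-likelihood test on methylated and unmethylated reads pooled over the promoter (1000 bp either side of the start), the body beyond it and the upstream part (from 2000 bp before the start to the promoter). Of 16590 regions tested in DBP versus DMSO, 0% had an adjusted p under 0.05 and 5.54% an unadjusted p under 0.05. Of the 6 member regions tested, 0 had an unadjusted p under 0.05, and their smallest adjusted p was 0.931 (edgeR, Benjamini-Hochberg). The largest difference was in the Cyp1a1 promoter, 22.7% ± 5.29 in DBP against 28.6% ± 10.1 in DMSO, a difference of -5.92 ± 6.56 points (SE). It depended on single samples, being -0.235 without DMSO replicate 3, -2.90 without DBP replicate 3 and -9.79 without DMSO replicate 2. The Ahr promoter differed by -1.33 ± 0.777 points and the Tiparp promoter by -1.31 ± 0.650. Higher in DBP were the Ephx1 body by 4.81 ± 5.35, the Cyp1a1 upstream part by 2.89 ± 2.54 and the Cyp1b1 body by 1.26 ± 1.58 points. The median of the 6 differences was -0.0274, against -0.0836 over all regions. With the CCGG CpGs left out, the Tiparp promoter was at 0% in DBP against 0.346% in DMSO (adjusted p = 1, edgeR) and the Cyp1b1 body at 0.710% against 0.0779% (adjusted p = 0.817, edgeR). Both had an unadjusted p under 0.05, that is 2 of 5 member regions against 575 of 13422 over all regions. Both differences were under 1 point. Beside this comparison, Aqp5, the only measured gene of the salivary acinar list, had a promoter level of 20.7%, 47.0% and 32.5% in the DMSO samples. The DBP samples were lower, at 12.8%, 19.3% and 9.82%, with no overlap, and of the fibroblast list Pdgfra separated the same way, at 6.86%, 14.7% and 5.71% in the DMSO samples against 1.59%, 4.11% and 4.85% with DBP. Aqp5 and Pdgfra were named after their values were seen. The other 6 marker promoters measured overlapped. Among them was Twist2 of the fibroblast list, at 37.1%, 29.5% and 29.8% in the DMSO samples against 28.3%, 24.0% and 34.8% with DBP. Neither Aqp5 nor Pdgfra had an adjusted p under 0.05 (edgeR), as no region tested did. The share of all promoters that separated in this way was not counted, and the part of cell makeup in the differences was not tested.

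The comparison of DBP+agent with DBP asked whether the agent altered methylation in DBP-treated tissue. Of 127381 CpGs tested, 5.43% were called, 27.0% had an unadjusted p under 0.05 and 5.62% had groups that did not overlap. Of 56 member CpGs tested, 0 were called, 8 had an unadjusted p under 0.05 and 1 had groups that did not overlap. At 26 of the 56 every read of both groups was unmethylated, so these could neither be called nor separate. The share of such CpGs over all CpGs tested was not counted. Fisher's exact test and edgeR also called 0 of the 56, against 6081 and 6 over all CpGs tested. With 6 calls in all, edgeR could hardly have called a member CpG. The smallest p was at Cyp1b1 1368 in the coding exon, with 1 of 143, 0 of 80 and 20 of 61 methylated reads in DBP+agent against 0 of 30, 0 of 35 and 0 of 37 in DBP. Its q was 4.81e-06 with a pooled difference of 9.45 points, just under the limit of 10. The difference came from DBP+agent replicate 3 (exact permutation p = 0.4), and in that sample the neighbouring CpGs at 1359 and 1380 bp were methylated in 0 of 61 reads each. Cyp1b1 1110 and 1103, which share their reads, were at 0% in DBP+agent against 4.04% ± 3.51 in DBP (q = 0.0297 each, exact permutation p = 0.4). The CpG with separated groups, named after its values were seen, was the CCGG CpG Cyp1b1 1099, at 54.4% ± 7.03 in DBP+agent and 35.1% ± 1.60 in DBP (q = 0.101).

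At the level of regions, 0% of 19375 had an adjusted p under 0.05 and 3.86% an unadjusted p under 0.05. Of 7 member regions 0 had an unadjusted p under 0.05, and their smallest adjusted p was 0.978 (edgeR). The Cyp1a1 promoter differed by 7.91 ± 7.12 points, and by 1.56 without DBP+agent replicate 1. Also higher in DBP+agent were the Cyp1a1 upstream part by 2.23 ± 1.95, the Cyp1b1 body by 2.13 ± 1.44 and the Ahr promoter by 0.796 ± 0.892. Lower in DBP+agent were the Cyp1a2 body by -5.91 ± 6.82, the Ephx1 body by -5.55 ± 4.33 and the Tiparp promoter by -0.0988 ± 0.498. The median of the 7 was 0.796, against 0.156 over all regions. Without CCGG CpGs the Tiparp promoter was at 0.202% against 0%, with an unadjusted p under 0.05 (adjusted p = 1, edgeR). The share over all regions without CCGG CpGs is not given here. This Tiparp difference was under 1 point. It and the Tiparp difference between DBP and DMSO rest on the same DBP samples, in which the matched CpGs had no methylated read. All Tiparp promoter CpGs outside CCGG stood at 0.104%, 0% and 0.134% there.

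The comparison of DBP+BR extract with DBP asked the same of BR extract, and it shared the 3 DBP samples with both comparisons above. Of 104443 CpGs, 8.61% were called, 32.4% had an unadjusted p under 0.05 and 5.84% had groups that did not overlap. Of 50 member CpGs, 0 were called, 6 had an unadjusted p under 0.05 and 0 had groups that did not overlap. At 29 of the 50 every read of both groups was unmethylated, and the share of such CpGs over all CpGs tested was not counted. Fisher's exact test and edgeR also called 0 of the 50, against 8422 and 24 over all CpGs tested. With 24 calls in all, edgeR could hardly have called a member CpG. Cyp1a1 -1081 had 0 of 104, 0 of 33 and 4 of 80 methylated reads in DBP+BR extract against 0 of 26, 0 of 20 and 0 of 18 in DBP (q = 0.0553, exact permutation p = 1). The AhR core CpG Cyp1a1 -1060 had 0 of 102, 0 of 33 and 0 of 81 against 0 of 26, 0 of 20 and 1 of 19 (q = 0.0565, exact permutation p = 1). Ahr 375 in the 5′ UTR likewise differed by 1 read, which was methylated in DBP replicate 2 among 15 (q = 0.0775, exact permutation p = 1). Each of these differences thus rested on a single sample.

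Among regions, 0% of 19005 had an adjusted p under 0.05 and 3.13% an unadjusted p under 0.05, and of 6 member regions 0 had an unadjusted p under 0.05 (smallest adjusted p 0.993, edgeR). The Cyp1a1 promoter had 32.2% ± 12.4 in DBP+BR extract against 22.7% ± 5.29, a difference of 9.53 ± 7.78 points, which ranged from 5.07 without DBP+BR extract replicate 1 to 16.6 without replicate 3. The Cyp1a1 upstream part differed by 1.61 ± 2.48, the Ahr promoter by 0.840 ± 0.646, the Tiparp promoter by 0.304 ± 0.437, the Cyp1b1 body by 0.0116 ± 1.41 and the Ephx1 body by -2.33 ± 4.98 points. The median was 0.572, against -0.132 over all regions. In all 3 comparisons the group ranges of every tested member region overlapped when CCGG CpGs were included. Without them the ranges did not overlap for the Cyp1b1 body in DBP versus DMSO and for the Tiparp promoter in DBP+agent versus DBP and in DBP+BR extract versus DBP (0.0649% against 0%), with adjusted p of 0.817, 1 and 1 (edgeR). At the matched Tiparp CpGs, CCGG included, the DBP samples had 726 to 975 reads. The DBP+agent samples had 2743 to 3954 and the DBP+BR extract samples 2055 to 4384, so depth and group cannot be told apart there. The share of all regions whose groups did not overlap was not counted, so neither overlap nor separation in the member regions can be set against it.

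**Figure D5:**
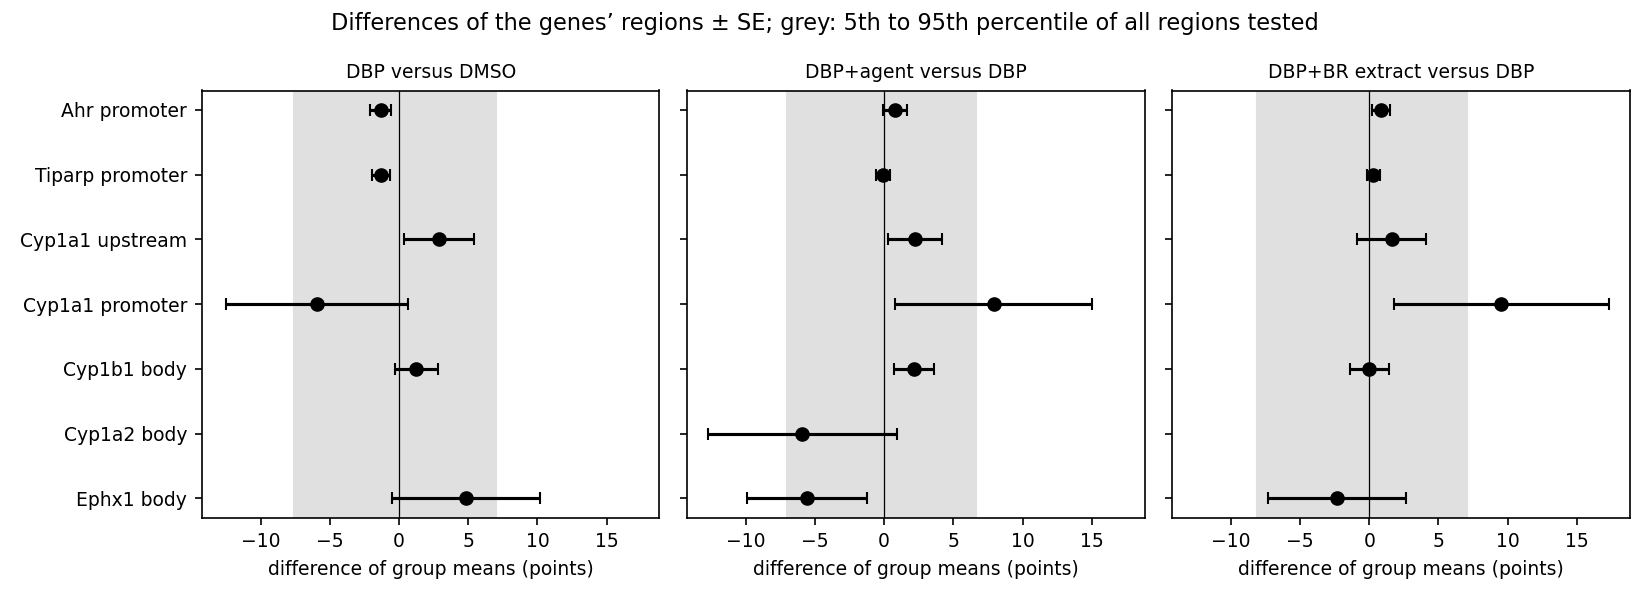
Difference of group means in percentage points (points, with bars of 1 SE) for the regions tested in each comparison (7 with DBP+agent, 6 in the others), beside the range from the 5th to the 95th percentile of all regions tested (grey). The Ahr and Tiparp promoters lie close to 0, and the Cyp1a1 promoter, measured at 2 CpGs, lies farthest from it, at -5.92, 7.91 and 9.53 points.

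Other genes of AhR signalling and xenobiotic metabolism were taken from a list of 32 genes, of which 30 were in the annotation. Promoters could be tested for 15, 17 and 17 of them and bodies for 12, 16 and 16 in the 3 comparisons, and 0 passed the adjusted threshold. In DBP versus DMSO 0 promoters and 0 bodies had an unadjusted p under 0.05, against 4.66% of all promoters and 6.64% of all bodies. In DBP+agent versus DBP 0 promoters and 2 bodies did, Aldh3a1 (an aldehyde dehydrogenase induced by AhR) at 19.2% against 31.3% and Src (a kinase found with cytosolic AhR) at 45.3% against 55.7%, both with an adjusted p of 0.974 (edgeR), where 4.99% of all bodies had an unadjusted p under 0.05. In DBP+BR extract versus DBP 1 body did, Aldh3a1 at 12.5% against 31.3% with an adjusted p of 1.00 (edgeR), where 3.08% of all bodies did. These bodies were lower than in DBP, and both Aldh3a1 differences share the same DBP samples. The median difference of the list's promoters was 0.0720, 0.685 and -0.718 points in the 3 comparisons against -0.0985, 0.152 and -0.125 over all promoters, and that of its bodies -0.974, -0.407 and -2.56 against -0.0523, 0.182 and -0.109. The 15 promoters measured at 20 or more reads in all 12 samples had medians over samples from 1.52% for Ncoa3, a coactivator, to 18.5% for the epoxide hydrolase Ephx2. Nfe2l2, which encodes NRF2, had 6.32% and Keap1, its inhibitor, 4.06%.

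The labelled tissue was compared with promoters of marker genes, which in methylation data say less than expression would. Of 8 squamous epithelium markers 3 were measured, with a mean level of 32.5% to 41.5% per sample, and of these Krt4 lay between 73.3% and 97.1%. Of 8 skeletal muscle markers 2 were measured (7.97% to 14.1%), of 5 fibroblast markers 2 (14.0% to 27.6%) and of 6 leukocyte markers 0. Of 4 salivary acinar markers only Aqp5 was measured, which ranged from 15.4% to 23.8% in DBP+agent and from 14.9% to 31.9% in DBP+BR extract. These lists do not show which cells contributed to the member regions.

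Among member regions with 20 or more reads in all 12 samples, the promoter and the body whose group means spanned the widest range were the Cyp1a1 promoter (9.53 points) and the Ephx1 body (5.55 points). Among 8906 promoters, the levels most like those of the Cyp1a1 promoter over the 12 samples were found in Rgmb (Pearson r = 0.928), Entpd3 (0.857) and Fads2 (0.832). Among 6975 bodies, those most like Ephx1 were Klf13 (0.934), Samsn1 (0.827) and Zfp664 (0.823). They are the highest coefficients of all those computed, over samples that differ in depth, and are given as a description.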

How the data were processed

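DNA methylation was measured by ERRBS in 12 samples, 3 in each of 4 groups taken from the labels. The authors trimmed reads with Trim Galore 0.3.3, aligned them to mm9 with Bismark 0.10.1 and deposited, per cytosine, the methylated and unmethylated read counts, with no duplicate removal by molecular identifiers. The deposited percent methylation equals these counts on every line. Intervals (Wilson, 95%) and limits from a count of 0 (3 reads of the total) cover counting error only. CpG calls per sample ranged from 3287367 to 78889043.

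Per CpG, the settings of the study's methylKit test were rebuilt, since methylKit itself was not run: at least 10 reads, the top 0.1% of coverage removed, coverage scaled to the highest median, strands merged, presence in all 6 samples, logistic regression with a likelihood ratio test, q under 0.01 by Benjamini-Hochberg over all CpGs tested and a difference over 10 points. That test does not model the spread between samples, and its minimum of 10 reads applied to each strand before strands were merged. Regions were pooled over CpGs read in all 12 samples with at least 20 reads per sample and tested with edgeR 4.0.16 (limma 3.58.1, R 4.3.3), adjusted over all regions of a kind. Single values were tested by two-sided exact permutation (SciPy 1.17.1, Python 3.11.15). Scripts were tested on simulated data. Gene models were GENCODE on mm9, and sequences came from the mm9 reference.

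Named CpGs were the 3 with the smallest p in each comparison and core CpGs with 10 or more reads in all 12 samples. Other CpGs were chosen after their values were seen. A promoter result of the pathway list is not reported here. The genes, gene lists and tests were chosen with earlier results of these data known. Alternatives were other coverage minimums, thresholds, tests and windows, each sample left out, the replicate block and, added after seeing the data, CCGG CpGs left out.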

Additional observations from a re-analysis of the deposited data

How the results depend on the processing

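In DBP versus DMSO 0 CpGs of the 9 genes were called under every alternative run, and in all 3 comparisons 0 of their regions were. With a coverage minimum of 20 reads no CpG of the genes could be tested in DBP versus DMSO. In DBP+agent versus DBP, a coverage minimum of 5 reads called 2 of the genes' 113 CpGs tested, against 14843 of 261621 in all. They were Ephx1 15362 (-18.3 points) and Cyp1a2 1535 (-22.5 points). Leaving out each sample gave 0 to 1 called CpGs there, out of 56 to 62 tested. Over all CpGs 6538 to 8205 were called, among 127623 to 164839 tested. Called in the genes were Cyp1b1 1368 without DBP+agent replicate 1 (16 points) or replicate 2 (13.3 points) and Cyp1a2 1535 without DBP replicate 2 (-22.3 points). Cyp1b1 1508 was called without DBP replicate 3 (22.5 points). In DBP+BR extract versus DBP, keeping strands apart called 1 of 49 sites of the genes, against 8826 of 103221 in all. It was the CCGG CpG Ahr 381 (20.4 points). Leaving out each sample gave 0 to 1 of 50 to 56 CpGs tested. Over all CpGs 6890 to 10742 were called, among 104793 to 132465 tested. Called in the genes were Ahr 381 without DBP+BR extract replicate 1 (43.2 points) and Cyp1b1 1508 without replicate 2 (-23.4 points). The others were Cyp1a1 -420 without replicate 3 (15.4 points) and Cyp1b1 1938 without DBP replicate 1 (-22.9 points). The cause of these changes was not tested.

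With the replicate block, 1 of 50 CpGs of the genes was called in DBP+BR extract versus DBP, against 8270 of 104443 in all. It was Ahr 381 (11.1 points, logistic regression with the block, q = 0.000133). In the other comparisons 0 CpGs of the genes were called, and over all regions 5, 1 and 0 were called. Same-numbered samples correlated at -0.00317 to 0.0437 over 8908 promoters, and not every sample correlated best with its own number. Correlations this close to 0 cannot decide whether same-numbered samples were paired.

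Of 149 alternative values of the 19 region differences, 146 moved by less than the spread between samples. The 3 others arose with CCGG CpGs left out: Tiparp in DBP versus DMSO went from -1.31 to -0.346 points, and Ahr from -1.33 to 0.181 and, with BR extract, from 0.840 to -0.181. Over all CpGs the calls in the 3 comparisons in turn (59, 6914 and 8997) became 25, 1502 and 1921 without scaling, 0, 6 and 24 with edgeR, 31, 960 and 1036 at a difference over 25 points, 34, 14843 and 15018 at 5 reads, 57, 2006 and 2400 at 20 reads, 45, 3468 and 4080 without CCGG CpGs, and 312, 10937 and 11937 at q under 0.05. Fisher's exact test gave 15 in DBP versus DMSO, where leaving out a sample gave 20 (without DBP replicate 1) to 125 (without DMSO replicate 1). Over all regions logistic regression called 1138, 2431 and 4025, and edgeR without DMSO replicate 1 called 104 in DBP versus DMSO.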

Other observations

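Isolated values at single CpGs, chosen after the values were seen, recurred in DBP+agent replicate 3. Cyp1b1 1368 was methylated in 20 of 61 reads there while 1359 and 1380 had 0 of 61 each. Tiparp 154 was methylated in 7 of 145 reads there, in no read of the other 11 samples, and its neighbour at 143 had 0 of 145. Cyp1a2 1535 was methylated in 18 of 36 reads there while the CCGG CpG at 1532 had 39 of 39. In DBP+BR extract replicate 3, the neighbouring CpGs Cyp1b1 1103 and 1110 each had 6 of 70 reads methylated, against 0 of 51 in replicate 2. Cyp1a1 -1081 had 4 of 80 in that replicate 3 against 0 of 104 in replicate 1. Cyp1a1 -1040 had 5 of 127 in DBP+agent replicate 2 against 0 of 137 in DBP+agent replicate 1.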
